A study of Mus musculus with 20 samples.

Results

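A group of 8 genes of circadian output were followed in mouse liver: the PAR bZIP transcription factors Dbp, Hlf and Tef, their bZIP antagonist Nfil3, the clock-controlled genes Usp2 and Ciart, and the bHLH repressors Bhlhe40 and Bhlhe41. They were taken by symbol from the probe-to-gene table of the array, which assigned 1 probe set to each of the 8, among 19505 genes in all. Total RNA came from the livers of 20 males of the obese, leptin-deficient ob/ob strain, 1 array per mouse, in 4 groups of 5. Mice breathed filtered air, drank metformin, an antidiabetic drug, in their water, were exposed to PM2.5, the fine particles of polluted air, or received both PM2.5 and metformin, which is called the combined group. The shared protocol names 2 weeks of treatment, 6 hours per day in the particle chamber, a 12-hour light and 12-hour dark cycle and free access to food. It gives no age, no dose of particles, a drug dose only as set by body weight, and no clock hour at which mice were killed, and the metformin label names no air. Mice are numbered within a group in the order of the samples, so equal numbers link no mice.

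The circadian clock of each cell is a loop in which CLOCK, with ARNTL (BMAL1) or NPAS2, switches on the Per, Cry and Nr1d genes through DNA sites called E-boxes, and the products switch CLOCK and ARNTL off again. DBP, HLF and TEF carry the rhythm outward: they activate genes with D-box sites, among them genes of detoxification in liver, and NFIL3 (E4BP4), which binds the same sites, represses them. Nfil3 itself is controlled by the REV-ERB and ROR receptors, so that its rhythm runs opposite to that of Dbp. CIART (CHRONO), BHLHE40 (DEC1) and BHLHE41 (DEC2) repress CLOCK-driven transcription, and USP2 is a deubiquitinase with rhythmic expression in liver. Dbp and Usp2 are among the genes with high-amplitude daily rhythms in this organ.

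Promoter sequences show how the members differ in the sites named above. RefSeq windows from 250 bases before to 50 bases after the start of transcription (GRCm38.p6) were found for 7 of the 8 members and were searched on both strands for the E-box CACGTG, the D-box TTANGTAA, the core of the ROR element TAGGTCA and the cyclic AMP element CRE TGACGTCA. Ciart held 3 E-boxes, at -116, -58 and -44 from the start, which 0.0883% of all 32851 windows matched with 3 or more. Both windows of Tef and the window of Bhlhe41 held 1 E-box each; 7.15% of all windows held at least 1. The window of Nfil3 held the ROR core on the opposite strand at -12, found in 2.61% of windows, and that of Hlf held the CRE at -9, found in 1.79%. The windows of Dbp and Usp2 matched none of the 4 motifs, and no D-box was found in any member's window (2.32% of all windows). A match is a run of letters and not a shown binding site, and sites outside these windows were not searched. The windows of 4 members are printed because they belong to members described below with different patterns: E-boxes without any other match (Ciart), a ROR core (Nfil3), a CRE (Hlf) and no match (Dbp). Capitals mark the matches. Ciart lies on the minus strand at chr3:95882179-95882478, Nfil3 on the minus strand at chr13:52980990-52981289, Hlf on the minus strand at chr11:90390868-90391167 and Dbp on the plus strand at chr7:45704997-45705296; each is written 5′ to 3′ in the direction of the gene.
Ciart: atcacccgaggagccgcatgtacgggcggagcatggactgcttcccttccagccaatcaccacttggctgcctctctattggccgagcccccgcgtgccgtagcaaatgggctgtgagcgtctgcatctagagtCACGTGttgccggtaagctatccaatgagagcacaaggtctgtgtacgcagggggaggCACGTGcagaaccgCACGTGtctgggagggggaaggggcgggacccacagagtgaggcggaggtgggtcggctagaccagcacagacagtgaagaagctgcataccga
Nfil3: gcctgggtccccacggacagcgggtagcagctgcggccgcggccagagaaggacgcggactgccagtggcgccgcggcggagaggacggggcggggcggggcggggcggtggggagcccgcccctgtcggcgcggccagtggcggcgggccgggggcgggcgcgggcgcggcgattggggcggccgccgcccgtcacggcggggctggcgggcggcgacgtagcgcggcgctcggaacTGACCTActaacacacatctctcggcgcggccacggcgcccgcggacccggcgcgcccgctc
Hlf: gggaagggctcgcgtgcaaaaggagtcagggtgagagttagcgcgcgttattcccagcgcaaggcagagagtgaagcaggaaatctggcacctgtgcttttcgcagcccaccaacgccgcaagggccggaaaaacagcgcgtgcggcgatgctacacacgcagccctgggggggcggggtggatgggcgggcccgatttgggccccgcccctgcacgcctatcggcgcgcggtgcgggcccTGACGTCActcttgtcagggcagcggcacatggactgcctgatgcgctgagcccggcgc
Dbp: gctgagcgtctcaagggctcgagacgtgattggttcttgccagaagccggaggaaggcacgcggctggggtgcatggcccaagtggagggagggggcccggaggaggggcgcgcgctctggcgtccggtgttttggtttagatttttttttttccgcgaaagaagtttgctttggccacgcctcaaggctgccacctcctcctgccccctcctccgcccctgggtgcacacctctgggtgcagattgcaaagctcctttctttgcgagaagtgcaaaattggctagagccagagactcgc

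Values are log2 signals of 1 probe set per gene, and a gene was tested where its mean over the 20 arrays exceeded log2 4.05, which left 11844 genes. The words rose and fell are used only where the limma p, adjusted by Benjamini-Hochberg over these genes, was under 0.05. Negative-control probe sets, named here by their identifiers, had a median of 4.49 and a 95th percentile of 8.36 on the average array, and signals near that median are called the floor. Of the 20 mice, Dbp and Bhlhe40 exceeded the 95th percentile of their own array in 20, Hlf in 12, Nfil3 in 3, Ciart in 2 and Usp2, Bhlhe41 and Tef in 0. In all, 7 of the 8 members were tested; Tef was not. Dbp, with a mean of 13.55, and Bhlhe40, with 13.16, were bright (percentiles 95.1 and 94.4 of all genes on the array), Hlf (8.45), Nfil3 (7.57) and Ciart (7.19) in the middle, and Usp2 (5.52), Bhlhe41 (4.62) and Tef (3.69) near the floor. Signals of different probe sets do not rank transcripts by abundance. Ciart, Usp2 and Dbp had larger standard deviations over the 20 arrays (1.37, 1.19 and 1.11) than 99.8, 99.5 and 99.3% of tested genes. The liver markers Alb, Apoa1, Ttr and others, 8 in all, were bright, with a median of their mean signals of 18.07, and their summed log2 signal was 139.1 to 140.8 over all arrays.

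The combined group was the least uniform: its arrays correlated at 0.972 to 0.993 across genes, against 0.985 or more within the other groups. A pair of its arrays had the highest negative-control medians of the study, 4.79 in mouse 2 and 4.69 in mouse 4. Arrays in filtered air lay between 4.36 and 4.43, with metformin between 4.45 and 4.54 and with PM2.5 between 4.34 and 4.52. The lowest combined array was at 4.44. Every metformin and every combined array thus had a higher median than every filtered-air array. A fit with this median as a covariate cannot cleanly separate it from treatment in these 2 comparisons with filtered air. Of 10 Kupffer cell and macrophage markers 8 fell in the combined group against PM2.5, where 11.7% of all tested genes were called. Against filtered air 6 fell, beside 34.9% of all tested genes. The summed log2 signal of the 10 ran from 73.9 to 103 in the combined group, 96.7 to 103.8 with PM2.5, 88.1 to 92.6 with metformin and 91.7 to 100.5 in filtered air. Of 8 endothelial markers 4 fell in the combined group against PM2.5 (Pecam1, Lyve1, Clec4g and Tek), beside the same 11.7% of all tested genes. The summed log2 signal of the 8 ran from 65.6 to 73.3 in the combined group, 72.4 to 76.0 with PM2.5, 67.5 to 70.5 with metformin and 70.6 to 72.2 in filtered air. In whole liver, fewer cells of a type and less RNA per cell cannot be told apart. B cell and T and NK cell markers were near the floor (medians of mean signals 3.47 and 3.81). The part of cell makeup and of the control signal in the members' differences was not tested beyond the fit with the control signal as a covariate, given below.

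**Figure D1:**
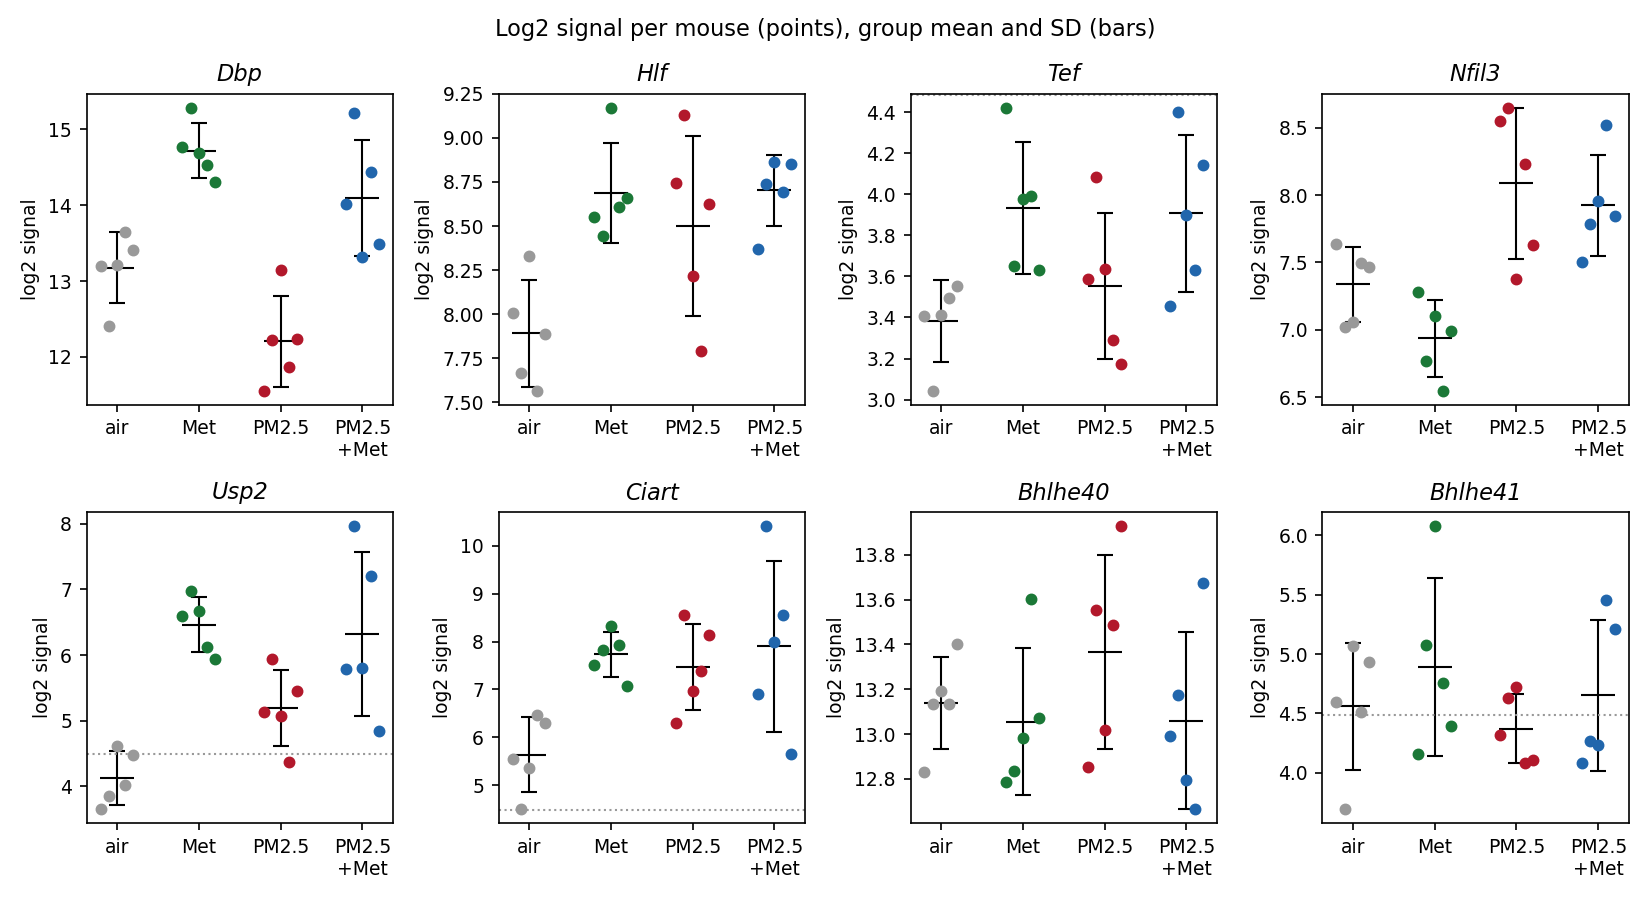
Log2 signal of the 8 members (vertical axes, one scale per panel) in each of the 20 mice (points) by group, with the group mean and SD as bars. The dotted line is the mean negative-control median, 4.49. Dbp is higher in every metformin mouse (14.31 to 15.28) than in any mouse with filtered air (12.40 to 13.65) or PM2.5 (11.56 to 13.14).

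The drug without particles was examined as metformin against filtered air. In all 3 members rose, Usp2, Dbp and Hlf, none fell, and Ciart was 4.26-fold higher but missed the threshold; 3.15% of all tested genes were called in this comparison. Dbp, the founding PAR bZIP activator, had signals of 13.19, 12.40, 13.22, 13.65 and 13.41 in filtered air and of 14.76, 15.28, 14.69, 14.53 and 14.31 with metformin. Every metformin mouse was higher than every filtered-air mouse. The difference was 1.54 ± 0.32 on the log2 scale (standard error, n = 5 mice per group; limma adjusted p = 0.0118), a 2.91-fold rise. Hlf, its relative, had signals of 8.01, 7.66, 8.33, 7.57 and 7.89 in filtered air and of 8.55, 8.45, 9.17, 8.61 and 8.66 with metformin, again without overlap. Its rise was smaller, 0.80 ± 0.21 (adjusted p = 0.0371), and it was not called when any 1 of filtered-air mice 1, 2, 4 and 5 or metformin mice 3, 4 and 5 was left out (adjusted p = 0.062 to 0.112). Both rises lost their call with the negative-control median as a covariate (Dbp 1.15, adjusted p = 0.0507; Hlf 0.72, adjusted p = 0.123). That median was higher in every metformin array than in every filtered-air array, so the covariate and the drug cannot be cleanly separated here.

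Usp2 had signals of 3.65, 3.85, 4.61, 4.02 and 4.48 in filtered air, and only mice 3 and 5 exceeded the negative-control median of their own array. With metformin it had 6.59, 6.98, 6.67, 6.13 and 5.94, all above that median. It rose (adjusted p = 0.0034), and since it starts at the floor, the fitted difference of 2.34 does not measure the size. Ciart, a CLOCK repressor, went from 5.55, 4.50, 5.37, 6.46 and 6.31 to 7.51, 7.83, 8.32, 7.92 and 7.07. The 4.50 of filtered-air mouse 2 lay close to the control median of its array, 4.43, so the size of Ciart differences from filtered air is uncertain. Every metformin mouse lay above every filtered-air mouse, and the difference was 2.09 ± 0.61 with an adjusted p of 0.0596. Fitted on these 10 arrays alone it was called (adjusted p = 0.00627), as it was with array weights (adjusted p = 0.00871). Nfil3, the repressor at D-boxes, was lower by 0.40 (95% interval -0.88 to 0.08, adjusted p = 0.371), and its ranges overlapped. Bhlhe40 at -0.08 (-0.52 to 0.35) and Bhlhe41 at 0.33 (-0.35 to 1.01) did not pass.

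PM2.5 against filtered air asks what differed with particles in mice without the drug. No member passed the threshold in limma, where 5.17% of all tested genes did, although 5 of the 7 tested members had an unadjusted p under 0.05 (Nfil3, Ciart, Dbp, Hlf and Usp2), beside 22.5% of all tested genes. Dbp had signals of 11.56, 12.22, 13.14, 11.87 and 12.23 with PM2.5, lower than 4 of the 5 filtered-air mice in all 5 cases. Its difference was -0.97 ± 0.32 (adjusted p = 0.0764). Nfil3 had 8.55, 8.65, 7.38, 8.23 and 7.63 with PM2.5 against 7.64, 7.02, 7.06, 7.50 and 7.46 in filtered air. Its difference was 0.75 ± 0.23 (adjusted p = 0.0597), and mouse 3 was the PM2.5 mouse with both the highest Dbp and the lowest Nfil3. Without that mouse both were called (Dbp -1.21, adjusted p = 0.0303; Nfil3 0.93, adjusted p = 0.0201). Ciart was 1.83 ± 0.61 higher (adjusted p = 0.0762), with signals of 6.30, 8.56, 6.97, 7.38 and 8.14, and Usp2 1.07 ± 0.42 higher (adjusted p = 0.128), with 5.12, 5.94, 5.07, 4.38 and 5.46. The 4.38 of PM2.5 mouse 4 lay close to the control median of its array, 4.34. Usp2 was also at the floor in filtered air, so its fitted differences here do not measure the size. Hlf was 0.61 ± 0.21 higher (adjusted p = 0.0831). Leaving out PM2.5 mouse 1 gave a call for Ciart (2.12, adjusted p = 0.0497) and leaving out mouse 4 one for Hlf (0.79, adjusted p = 0.0208). In 7 of the 10 runs without 1 mouse no member was called. Without PM2.5 mouse 2 the limma adjusted p was 0.162 for Dbp, 0.183 for Nfil3 and 0.211 for Ciart. It was then 0.252 for Hlf and 0.313 for Usp2. Fitted on the 10 compared arrays alone, Dbp, Usp2 and Ciart were called (adjusted p = 0.0493, 0.0267 and 0.0204). Array weights gave a call for Nfil3, Usp2 and Ciart (adjusted p = 0.0317, 0.0409 and 0.0105), the negative-control covariate for Dbp, Usp2 and Ciart (0.0185, 0.0442 and 0.047) and the 60th percentile filter for Nfil3 (0.0476). No filter, quantile normalization, median centring, eBayes trend and robust options and averaged probe sets gave no call for any member. Bhlhe40, at 0.23 (95% interval -0.21 to 0.67), and Bhlhe41, at -0.19 (-0.87 to 0.49), did not pass.

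**Figure D2:**
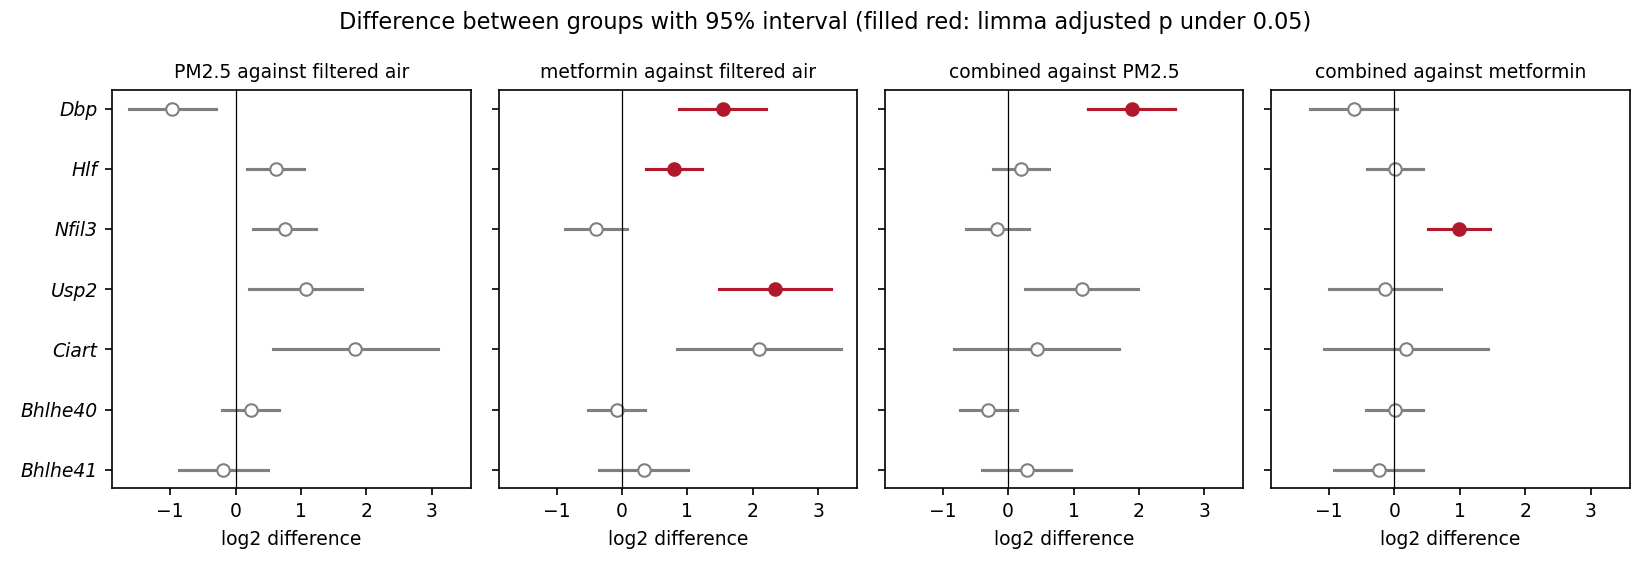
Log2 difference (horizontal axis) of the 7 tested members in 4 comparisons, with 95% intervals from limma; filled red points passed an adjusted p of 0.05. The Dbp interval lies above 0 for metformin against filtered air (0.87 to 2.21) and for the combined group against PM2.5 (1.22 to 2.55), and below 0 for PM2.5 against filtered air (-1.64 to -0.30), where the adjusted p was 0.0764.

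The direct comparison of metformin with PM2.5 placed these 2 treatments furthest apart for Dbp and Nfil3. Dbp was 5.70-fold higher with metformin (2.51 ± 0.32, adjusted p = 0.000377), and Nfil3 was 2.22-fold lower (-1.15 ± 0.23, adjusted p = 0.0162). For both genes no metformin mouse overlapped any PM2.5 mouse. These were the 2 members called, in a comparison with 1.59% of tested genes called, and both kept the call in each alternative run. In the same comparison 3 of the 8 endothelial markers fell and all 8 had a difference below 0, and all 10 Kupffer cell and macrophage markers, none of them called, had one too (median -0.88); their part in the result was not tested. Usp2 was 1.27 ± 0.42 higher with metformin without overlap, but did not pass (adjusted p = 0.123), except with the compared arrays alone (adjusted p = 0.0382). The difference of Ciart was 0.26 (95% interval -0.995 to 1.52). Hlf differed by 0.19 (-0.24 to 0.62).

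Metformin added to PM2.5 was examined as the combined group against PM2.5. Dbp rose in these mice and was the 1 of 7 tested members called, a share near the 11.7% of all tested genes called. Its signals in the combined group were 14.02, 15.21, 13.32, 14.43 and 13.48, all above the highest PM2.5 mouse at 13.14. The rise was 3.70-fold (1.89 ± 0.32, adjusted p = 0.00153). It held without any 1 mouse (1.61 to 2.12), and with the negative-control covariate it was 1.27 and not called (adjusted p = 0.0673). Nfil3 was at 7.51, 7.78, 7.96, 8.52 and 7.85, and its difference from PM2.5, -0.16, had a 95% interval of -0.64 to 0.32. Usp2 was at 5.78, 7.97, 5.80, 7.21 and 4.84, which is high in mice 2 and 4 and low in mouse 5. Its difference of 1.13 ± 0.42 did not pass (adjusted p = 0.0817) and was called without mouse 5 (1.496, adjusted p = 0.00846). Ciart spread from 5.66 in mouse 5 to 10.41 in mouse 2, with 6.90, 8.00 and 8.55 in mice 1, 3 and 4, and its difference was 0.43 (-0.82 to 1.69), with the sign turned without mouse 2 (-0.19). Hlf at 0.20, Bhlhe40 at -0.31 and Bhlhe41 at 0.28 did not pass either.

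**Figure D3:**
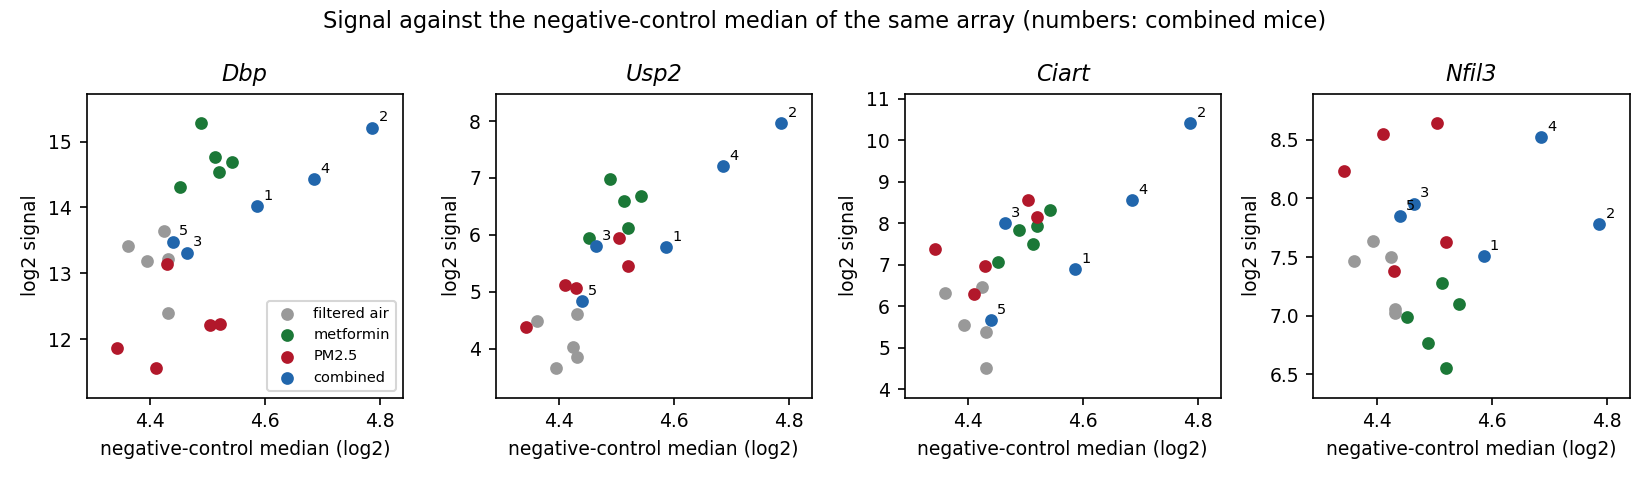
Log2 signal of 4 members (vertical axes) against the negative-control median of the same array (horizontal axes, log2) for the 20 mice, coloured by group, with the combined mice numbered. Combined mice 2 and 4, at control medians of 4.79 and 4.69, have the highest Usp2 signals (7.97 and 7.21), and combined mouse 2 has the highest Ciart signal (10.41).

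Inside the combined group 3 members were high where the control signal was high. Mice 2 and 4 had the highest control medians (4.79 and 4.69) and the highest Dbp, Usp2 and Ciart, and mouse 5, with the lowest control median (4.44), had the lowest Usp2 and Ciart. Nfil3 was highest in mouse 4 and lowest in mouse 1, whose control median was 4.59. What links the control signal and these members was not tested.

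PM2.5 added to metformin was examined as the combined group against metformin. Nfil3 rose and was the 1 of 7 tested members called, a share near the 16.3% of all tested genes called. The metformin mice had Nfil3 signals of 7.28, 6.77, 7.10, 6.55 and 6.99, all below the lowest combined mouse at 7.51. The rise was 0.99 ± 0.23 (adjusted p = 0.00712, 1.98-fold). It was called without any 1 mouse, and was 0.83 and not called without combined mice 2 and 4 together (adjusted p = 0.0674). Dbp was lower by 0.62 (95% interval -1.29 to 0.04, adjusted p = 0.193), and it was called both with the covariate (-0.99, adjusted p = 0.036) and without mice 2 and 4 (-1.11, adjusted p = 0.0453). Hlf, Usp2, Ciart, Bhlhe40 and Bhlhe41 lay between -0.24 and 0.17, with intervals as wide as -1.08 to 1.43 for Ciart.

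The combined group against filtered air gave the most member calls, 4 of the 7 tested, in a comparison with 34.9% of all tested genes called. Usp2 rose by a fitted 2.20 from the floor (adjusted p = 0.000447), Ciart rose by a fitted 4.80-fold (2.26 ± 0.61, adjusted p = 0.00629), with 1 filtered-air mouse near the floor, Hlf 1.76-fold (0.81 ± 0.21, adjusted p = 0.00447) and Dbp 1.89-fold (0.92 ± 0.32, adjusted p = 0.0305). Usp2 and Hlf did not overlap between the groups, whereas Ciart and Dbp did. The share of all tested genes without overlap was not counted, here or in the other comparisons. None of the 4 was called with the negative-control covariate, whose values did not overlap between these 2 groups, so it cannot be cleanly separated from treatment. The differences were then 0.82 for Usp2 (adjusted p = 0.0942), 0.58 for Ciart (0.562) and 0.16 for Dbp (0.805), each below the value without it by more than 1.5 times, and 0.65 for Hlf (0.13), which lay nearer to its value without it. Without combined mice 2 and 4, Usp2 and Hlf were still called and Ciart (1.21, adjusted p = 0.0978) and Dbp (0.43, adjusted p = 0.339) were not. Dbp also lost its call without filtered-air mouse 1 (adjusted p = 0.0509) or 2 (0.0981), or combined mouse 2 (0.109) or 4 (0.0746). The same happened with array weights (0.77, adjusted p = 0.0533) and with the compared arrays alone (0.92, adjusted p = 0.0512). Nfil3 was 0.59 ± 0.23 higher (adjusted p = 0.0527), and was called without filtered-air mouse 1 (adjusted p = 0.0474) or combined mouse 1 (0.0307). It was also called with the 60th percentile filter (adjusted p = 0.0429), array weights (0.0468) and the compared arrays alone (0.0376). This comparison shares the filtered-air mice with the first 2 and the combined mice with those just given, so its values are no separate support for them.

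The order of the group means differed among the members. For Dbp it ran from PM2.5 (12.20 ± 0.59, SD, n = 5) through filtered air (13.17 ± 0.47) and the combined group (14.09 ± 0.77) to metformin (14.71 ± 0.36). Filtered air and the combined group differed in limma, whereas PM2.5 and filtered air, and the combined group and metformin, did not pass. For Nfil3 the order was metformin (6.94 ± 0.29), filtered air (7.34 ± 0.28), the combined group (7.92 ± 0.37) and PM2.5 (8.09 ± 0.56), and no 2 neighbours in it passed. Hlf was lowest in filtered air (7.89 ± 0.30), with PM2.5 at 8.50 ± 0.51, metformin at 8.69 ± 0.28 and the combined group at 8.70 ± 0.20. Usp2 (4.12 ± 0.41) and Ciart (5.64 ± 0.79) were lowest in filtered air too, and PM2.5 was next for both (5.19 ± 0.57 and 7.47 ± 0.90). Their means in metformin (6.46 ± 0.42 and 7.73 ± 0.47) and in the combined group (6.32 ± 1.25 and 7.90 ± 1.79) were the 2 highest. Bhlhe40 stayed between 13.06 and 13.37 and Bhlhe41 between 4.37 and 4.89, with no pair of groups passing; Bhlhe41 exceeded the control median of its own array in 11 of 20 mice, so its differences could hardly be measured. Tef, the third PAR bZIP gene, was below the control median of its array in 20 of 20 mice, at group means of 3.38 to 3.93, and no level can be given for it.

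The interaction asks whether the drug difference under PM2.5 differed from that without it. No member passed in limma (0 of 7; 0 at an unadjusted p under 0.05), and 0.186% of tested genes did (13% at an unadjusted p under 0.05). The estimates were 0.35 for Dbp (95% interval -0.60 to 1.29), 0.24 for Nfil3 (-0.44 to 0.91), -0.60 for Hlf (-1.20 to 0.01), -1.21 for Usp2 (-2.44 to 0.01) and -1.66 for Ciart (-3.44 to 0.12). These intervals are wide, and they do not show that the drug difference was alike in both. With the negative-control covariate Usp2 was called (-1.63, limma adjusted p = 0.0361). That covariate cannot be cleanly separated from treatment, as stated above. Usp2 also lay at the floor in filtered air, so neither of its interaction values measures the size.

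Mice of 1 group also varied, and deviations from the group means were compared for the 28 pairs of members over the 20 arrays. No pair passed after adjustment over the 28, by Pearson's r or Spearman's rho (permutation within groups, 100000 resamples, two-sided). By Pearson's r the strongest relation was that of Usp2 with Ciart (r = 0.80, rho = 0.65; permutation p = 0.00277 and 0.0102, adjusted 0.0776 and 0.143), and r was 0.54 without the 2 arrays farthest from the median of Usp2. By Spearman's rho it was that of Dbp with Usp2 (r = 0.67, rho = 0.66; permutation p = 0.0121 and 0.00843, adjusted 0.137 and 0.143) and r was 0.64 without 2 arrays. Dbp and Nfil3 showed no such relation between mice of a group (r = -0.17, rho = -0.04; permutation p = 0.536 and 0.884, adjusted 0.761 and 0.916; r = 0.13 without 2 arrays).

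The core clock genes were set beside the members from a list of 17, of which 15 were on the array and 14 tested. Arntl, the BMAL1 gene, had its highest mean where Dbp had its lowest, and the reverse. Its means were 9.17 ± 0.29 in filtered air, 7.60 ± 0.56 with metformin, 10.25 ± 0.46 with PM2.5 and 9.30 ± 0.46 in the combined group. It rose by 1.09 ± 0.26 with PM2.5 (adjusted p = 0.0196) and fell by 1.57 ± 0.26 with metformin (adjusted p = 0.0019). In PM2.5 against filtered air Arntl and the clock kinase gene Csnk1d (0.52, adjusted p = 0.0443) were the 2 of 14 that rose and 0 fell, where 5.17% of all tested genes were called. In metformin against filtered air, with 3.15% called, 2 fell, Arntl and its relative Npas2 (-1.09 ± 0.28, adjusted p = 0.0379). Npas2 averaged 4.42 with metformin and 4.92 in the combined group, near the floor, so its fitted differences do not measure the size. The median of the 14 was 0.25 in the first and 0.08 in the second comparison, beside 0.02 and 0.00 over all tested genes. No clock hour of killing is given, so the part of time of day in the differences of clock genes and members was not tested.

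In metformin against PM2.5, with 1.59% of all tested genes called, 2 of the 14 rose and 2 fell. Arntl fell by 2.66 ± 0.26 (adjusted p = 1.24e-05) and Npas2 by 1.40 ± 0.28 (adjusted p = 0.0164), while the period gene Per3 rose by 2.02 ± 0.42 (adjusted p = 0.0204) and the REV-ERB beta gene Nr1d2 by 0.89 ± 0.19 (adjusted p = 0.0204). In the combined group against PM2.5 (11.7% called) Per3 rose (1.66 ± 0.42, adjusted p = 0.015) and Arntl and Npas2 fell (-0.96 and -0.90, adjusted p = 0.0221 and 0.0427). Against metformin (16.3% called) the combined group had higher Arntl (1.70, adjusted p = 0.000583) and Nr1d1, the REV-ERB alpha gene (0.88, adjusted p = 0.0187), and lower Nr1d2 (-0.65, adjusted p = 0.0208). Against filtered air, where 34.9% of all tested genes were called, 5 of 14 rose, a share near that background, among them Per1 (1.65, adjusted p = 0.00502), Csnk1d (0.51), Nr1d1 (0.83) and Cry2 (0.71; adjusted p = 0.0109, 0.012 and 0.0153), and 0 fell. In filtered-air mice 1 and 2 Per1, at 3.84 and 3.73, lay below the control medians of their arrays, 4.39 and 4.43. Its fitted difference therefore does not measure the size.

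**Figure D4:**
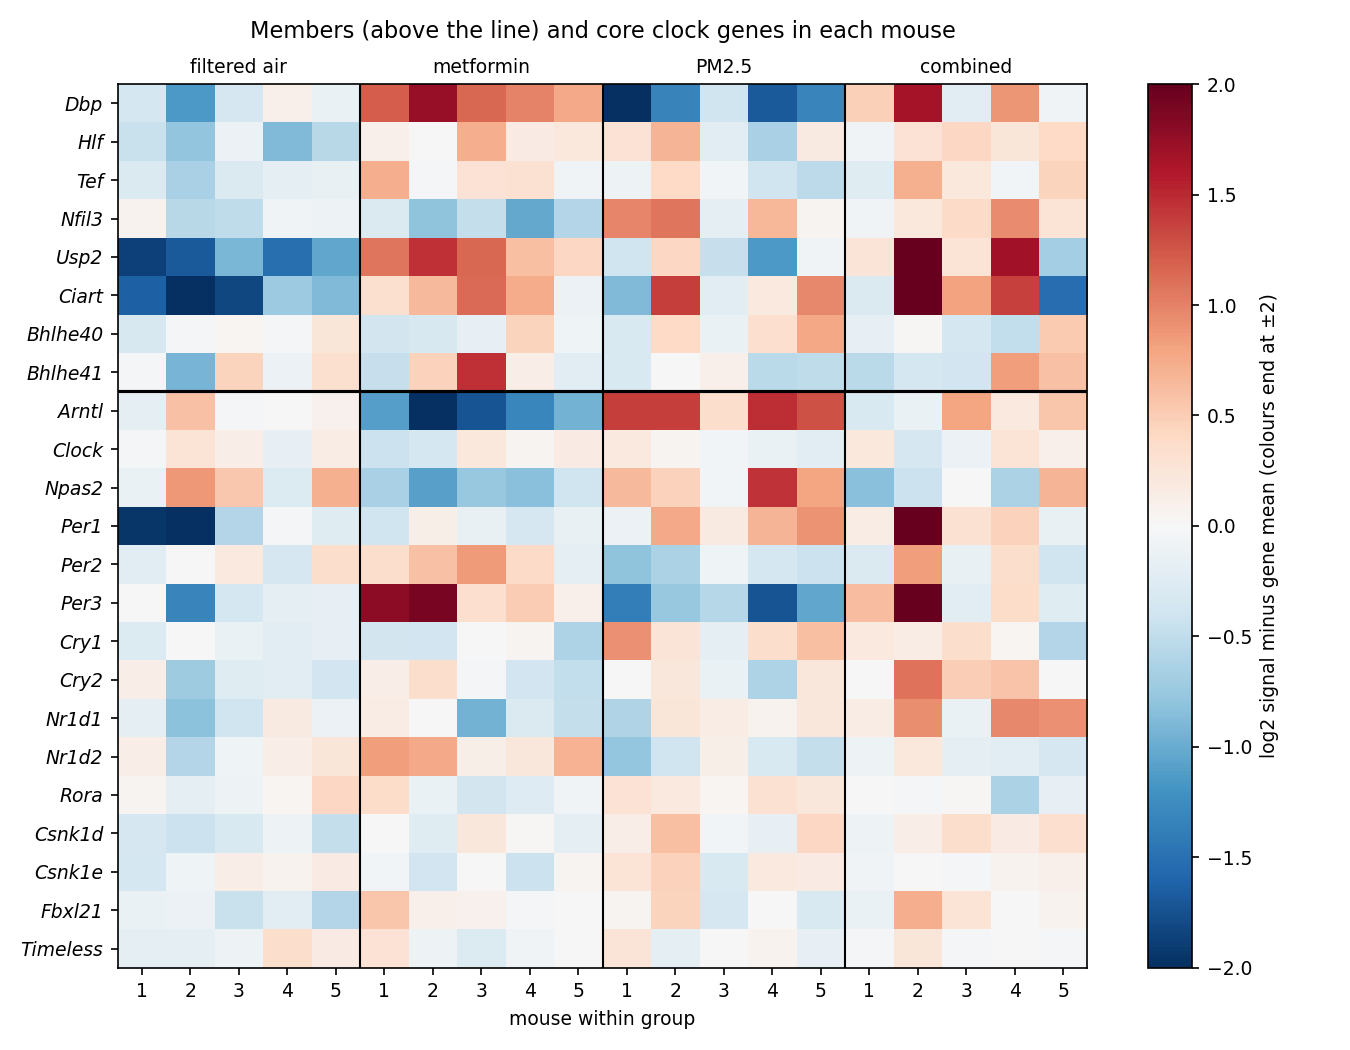
Log2 signal minus the gene's mean over 20 arrays (colour, ending at ±2) for the 8 members, above the line, and the 15 core clock genes on the array, in each mouse (columns, numbered within groups). Dbp and Per3 are above their means in all 5 metformin mice and Arntl below its mean in all 5, and combined mouse 2 stands out for Usp2, Ciart, Per1 and Per3.

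Genes that the PAR bZIP factors are known to control were counted next, 13 of 14 listed being on the array and tested. With metformin, where 3.15% of all tested genes were called, 3 rose and 0 fell: Nr1i3, which encodes the xenobiotic receptor CAR (1.51 ± 0.20, adjusted p = 0.000134), Alas1, the first enzyme of heme synthesis (1.15 ± 0.25, adjusted p = 0.0164), and the cytochrome P450 gene Cyp2a5 (0.59 ± 0.16, adjusted p = 0.0459). With PM2.5, where 5.17% were called and Dbp had its lowest mean, 3 also rose and 0 fell: Nr1i3 (0.98 ± 0.20, adjusted p = 0.00651), the acyl-CoA thioesterase gene Acot1 (1.78 ± 0.46, adjusted p = 0.0275) and Alas1 (0.88 ± 0.25, adjusted p = 0.045). In the combined group Nr1i3 (0.91, adjusted p = 0.00587) and Cyp7a1, the rate-limiting enzyme of bile acid synthesis (1.61 ± 0.38, adjusted p = 0.00939), rose against PM2.5, 2 of 13 beside 11.7% of all tested genes. Against filtered air 4 of 13 rose, which is no larger a share than the 34.9% of all tested genes called there: Nr1i3 (1.89), Cyp2a5 (0.93), Alas1 (1.38) and the hormone gene Fgf21 (1.86; adjusted p = 3.23e-06, 0.000227, 0.000325 and 0.00788). None of the 13 was called in limma between the combined group and metformin, or between metformin and PM2.5 (with 2 and 3 at an unadjusted p under 0.05, beside 30.9% and 15.6% of all tested genes). The list median was 0.31 with metformin and 0.34 with PM2.5 against filtered air, -0.09 in the combined group against PM2.5 and 0.14 against metformin.

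Genes with the most similar profile were found by the root mean square difference of mean-centred log2 signals over the 20 arrays. Per3 was closest to Dbp (0.42), followed by the pseudogene Cyp2d37-ps (0.68) and B3galt1 (0.71). Nr1i3 was closest to Usp2 (0.65), before Gpt, an alanine aminotransferase gene (0.69), and Clmn (0.70). Usp2 itself was closest to Ciart (0.71), followed by Per1 (0.76) and the interleukin-6 receptor gene Il6ra (0.87). Zcchc24 (0.19), Sipa1l1 (0.21) and Zfp746 (0.23) were closest to Hlf, and Rbsn (0.37), Wdr91 (0.37) and Ing2 (0.38) to Nfil3. This measure also favours genes of small spread, and all 20 arrays and 4 groups enter it.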

How the data were processed

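The authors deposited log2 signals per probe set, 1 array per mouse, made with Affymetrix Expression Console per the submitters' processing notes; its version, normalization and summary method are not given in the sources used here. The table's probe set identifiers are not those of the array type given in the series text; symbols come from the platform annotation in which they occur. Of 28846 probe sets, 6640 controls were left out, and 19572 of the other 22206 had 1 gene; every symbol matched RefSeq through its Entrez identifier.

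The probe set with the highest mean was kept for each gene. Genes at or below the 40th percentile of mean signal (log2 4.05) were left out. Group means of all 4 groups were fitted with limma 3.58.1 in R 4.3.3 with eBayes (two-sided, 11844 genes), for 6 pairwise comparisons and the interaction; ± is a standard error unless SD is given. The tests were checked on simulated data. Alternatives were no filter, the 60th percentile, quantile normalization, median centring, array weights, eBayes trend and robust options, the compared arrays alone, averaged probe sets per gene, the negative-control median as a covariate, combined mice 2 and 4 left out, and each mouse left out in turn. The members, gene lists, tests and alternatives were chosen with earlier results of these data known. By the rule for named genes, every member was named, up to 4 genes with the lowest p among those that passed in each list and comparison, and the 3 most similar genes of each member called at least once, provisional names apart. Arrays give no depth, so their number limits the precision. Promoter windows came from RefSeq, GRCm38.p6.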

Additional observations from a re-analysis of the deposited data

Results flagged for a closer look

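One value stood apart within its group: Tef in filtered-air mouse 2, at a log2 signal of 3.04, was lower than the nearest of the other 4 mice, at 3.41, by more than Dixon's test allows for 5 values. All these signals lie below the negative-control median of 4.49. The test was made on 32 sets of 5 values, and chance alone marks about 1 in 20.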

How the results depend on the processing

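Of 49 results (7 tested members in 7 comparisons), 11 were called. Of these 3 kept their call in every alternative that tested them: Dbp and Nfil3 in metformin against PM2.5, and Usp2 in metformin against filtered air. The 60th percentile filter left out Usp2 and Bhlhe41, so neither was tested in that run. Another 27 were never called. The number of members called in PM2.5 against filtered air rose from 0 to 1 with the 60th percentile filter and to 3 with array weights, with the compared arrays alone and with the negative-control covariate, and was 0 to 2 without 1 mouse. With that covariate it was 1 in metformin against filtered air, 0 in the combined group against PM2.5, 2 against metformin, 0 against filtered air and 1 in the interaction. Without combined mice 2 and 4 it was 2 in the combined group against filtered air, and without 1 mouse it was 1 to 2 in the combined group against PM2.5. The cause was not tested.

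Signs turned only for members that were not called. With the covariate these were Usp2 (-0.0028) and Ciart (-0.95) in the combined group against PM2.5, Hlf (-0.0621) and Ciart (-0.65) against metformin, and Ciart in metformin against PM2.5 (-0.31). Without combined mice 2 and 4 they were Ciart against PM2.5 (-0.62) and metformin (-0.88), Bhlhe40 (0.0164) and Bhlhe41 (-0.0507) against filtered air, and Dbp in the interaction (-0.14). For the combined group against metformin, Hlf was -0.0348 after quantile normalization and -0.0038 after median centring, and Bhlhe40 -0.0136 after centring and -0.12 with array weights, which also gave -0.0849 for Bhlhe41 against filtered air. Without 1 mouse, values in the combined group against metformin ran from -0.0461 to 0.14 for Hlf, -0.56 to 0.23 for Usp2, -0.15 to 0.14 for Bhlhe40, -0.44 to 0.0564 for Bhlhe41 and -0.46 to 0.73 for Ciart. They ran from -0.19 to 0.99 for Ciart against PM2.5, and against filtered air from -0.23 to 0.0209 for Bhlhe40 and -0.12 to 0.23 for Bhlhe41. They ran from -0.0315 to 0.53 for Ciart in metformin against PM2.5 and from -0.25 to 0.25 for Bhlhe41 in the interaction. Quantile normalization and centring moved the median of all genes by at most 0.033. Signals near the floor limit Usp2, Bhlhe41 and Tef, Ciart in filtered-air mouse 2, and among the listed genes Npas2, Per1 and Hes6.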

Other observations

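Other genes with daily rhythms in liver were counted from a list of 14, of which 13 were tested. Of these 1 rose and 1 fell with PM2.5 (5.17% of all tested genes called), and 1 fell with metformin (3.15%), each against filtered air. In the combined group 1 rose and 2 fell against filtered air, no larger a share than the 34.9% of all tested genes called there. Against PM2.5 2 fell, beside 11.7%, and against metformin 2 fell, beside 16.3%. In metformin against PM2.5 3 fell, beside 1.59%. With PM2.5 against filtered air Cdkn1a, the cell cycle inhibitor p21, rose (4.53 ± 0.91, limma adjusted p = 0.00662, n = 5) and the transferrin receptor gene Tfrc fell (-2.24 ± 0.29, adjusted p = 0.000279). Tfrc also fell with metformin (-1.42, adjusted p = 0.00975) and in the combined group against filtered air (-2.36, adjusted p = 1.19e-05) and metformin (-0.94, adjusted p = 0.0311). Cdkn1a rose in the combined group against filtered air (2.58, adjusted p = 0.0313). Wee1, a kinase gene that restrains entry into mitosis, fell in the combined group against metformin (-1.27 ± 0.29, adjusted p = 0.00609) and against PM2.5 (-0.91, adjusted p = 0.044), and Pnp, a purine enzyme gene, fell against PM2.5 (-0.80, adjusted p = 0.034) and filtered air (-1.24, adjusted p = 0.000498). In metformin against PM2.5 Cdkn1a, Lonrf3 and Slc45a3 fell (-3.92, -0.92 and -0.98; adjusted p = 0.0322, 0.0349 and 0.0485).

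Among 9 tested bZIP and bHLH factors related to the members, Hes6 fell with PM2.5 (-1.03, adjusted p = 0.0335), with metformin (-1.15, adjusted p = 0.0266) and in the combined group (-1.81, adjusted p = 7.55e-05), each against filtered air. Its mean in the combined group, 4.51, lay at the floor (mean control median there 4.59), so the last value does not measure the size. Cebpd rose with PM2.5 (0.85, adjusted p = 0.0347), and Atf4, the stress response factor, fell with metformin (-0.85 ± 0.14, adjusted p = 0.00139) and in the combined group (-0.45, adjusted p = 0.0139) against filtered air, and with metformin against PM2.5 (-0.70, adjusted p = 0.0149). The 2 of 9 called in the combined group against filtered air are no larger a share than the 34.9% of all tested genes. The shares of all tested genes called were 5.17% for PM2.5 and 3.15% for metformin against filtered air, and 1.59% for metformin against PM2.5.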
